A study of Oryctolagus cuniculus with 4 samples.

Results

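Serpins, complement and coagulation genes were examined in single-cell RNA sequencing libraries of rabbit ear hypertrophic scar (HS), the raised, collagen-rich scar that forms when an ear wound heals over cartilage. The group was defined by gene symbol alone, with earlier results of these data known, and SERPINH1, a collagen chaperone, was left out. It held 34 of the 13913 genes in the deposited table. These were 9 serpins outside clade B, 8 clade B serpins, 6 complement components, the complement regulator CD59, 9 coagulation factors and their brakes, and the plasminogen activator gene PLAU.

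The libraries fell into 2 groups of 2. All tissues came from wild-type (WT) female rabbits bought at an age of 10 to 12 weeks, in which repeated wounding of the ventral ear had produced HS. The HS group had no treatment. The drug-loaded MNs group received separating microneedles (MNs) carrying a prodrug of 5-fluorouracil acetic acid, applied weekly for 3 weeks, and tissue was taken on day 43. An empty patch was not part of these libraries, so the drug and the patch cannot be told apart. Cells were freed from the ventral epidermis and dermis, with 1 tissue used per library. The study calls the samples of a group biologically independent, but does not state whether they came from separate rabbits, each of which carried several scars. The p-values measure only the spread between these libraries.

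Serpins are protease inhibitors that trap their target by a large change of shape. Those outside clade B are mostly secreted and restrain the clotting, fibrinolytic and complement proteases, while clade B serpins mostly stay inside cells and several of them are typical of stratified epithelium. Complement is a cascade of proteases that tags particles for uptake and starts inflammation; its classical arm begins when C1q bound to its target activates the proteases C1R and C1S. Coagulation starts when blood meets tissue factor, the product of F3, and fibrin is later removed by plasmin, which the urokinase encoded by PLAU releases from plasminogen. Many of these proteins circulate after release from the liver, but skin cells also make some of them.

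Each value below is relative expression, in units that add up to 1000000 per library. The sequencing depth was unknown. Between 28 and 30 of the 34 members were above 0 in a library, and together they took 0.348% and 0.364% of the total in HS, against 0.356% and 0.397% in drug-loaded MNs. A filter on low values, a mean of at least 1 unit over the 4 libraries, kept 23 members among 9348 tested genes. HS replicate 1 stood apart from the other libraries on the first principal component. The hepatocyte markers were almost absent: all 5 were in the table, none passed the filter, and their summed level was 0.421 and 0.464 units in HS, against 0.874 and 1.13 units in drug-loaded MNs.

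When drug-loaded MNs were compared with HS, complement components, SERPING1 and TFPI were higher, and SERPINB10 and F3 were lower, but no member passed the threshold over all genes. In limma, 0 of the 23 tested members had an adjusted p under 0.05, and the smallest adjusted p among them was 0.303. Over all tested genes 4, or 0.0428%, passed. At an unadjusted p under 0.05, 6 members were higher (26.1% of those tested) against 7.26% of all tested genes, and 2 were lower (8.70%) against 1.39%. The 6 were C1R, C1S, C2, CFP, SERPING1 and TFPI, and the 2 were SERPINB10 and F3. Without drug-loaded MNs replicate 1 there were 3 higher (C1S, C2 and TFPI) and 1 lower (SERPINB10). Without drug-loaded MNs replicate 2 there were 3 higher (C1S, CFP and SERPING1) and 2 lower (SERPINB10 and SERPINB13). The groups did not overlap, with drug-loaded MNs higher, in 10 members (43.5%) against 26.6% of all tested genes. They did not overlap, with drug-loaded MNs lower, in 5 members (21.7%) against 11.2%. The median log2 fold change was 0.35 over the 23 members and 0.12 over all tested genes, a shift to bear in mind for each change given below.

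**Figure D1:**
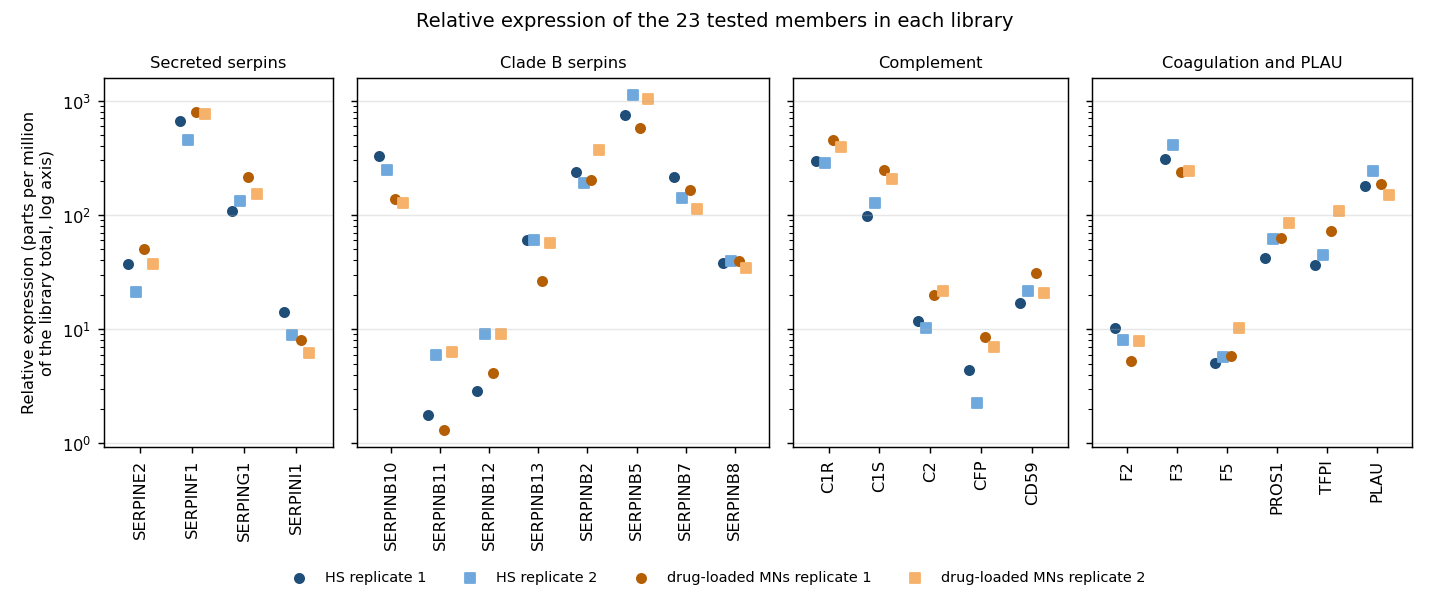
Relative expression of each tested member in each library, in parts of 1000000 on a log axis, with 1 point per library and members grouped by role. All 4 tested complement components lie higher in both drug-loaded MNs libraries than in both HS libraries, and SERPINB10 lies lower in both.

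Of the 6 complement components, 4 passed the filter, and all 4 were higher in drug-loaded MNs with no overlap between the groups and an unadjusted p under 0.05. Over all tested genes, 26.6% were higher without overlap and 7.26% were higher at an unadjusted p under 0.05. The median log2 fold change of the 4 components was 0.93. C1S encodes the protease that C1R activates and that then cleaves C4 and C2. It stood at 98.1 and 128 units in the HS libraries and at 249 and 207 units in the drug-loaded MNs libraries. The lower drug-loaded MNs library was therefore still well above the higher HS library. Its log2 fold change was 1.01 (limma SE 0.24, p 0.0033 unadjusted and 0.314 adjusted), and the ratio of the group means was 2.02. Of all tested genes, 97.3% had a log2 fold change no higher than that of C1S.

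C1R stood at 295 and 283 units in HS, against 457 and 395 units in drug-loaded MNs. Its HS libraries were close together, and the groups did not overlap, with a log2 fold change of 0.56 (limma SE 0.21, p 0.033 unadjusted and 0.512 adjusted). C1R and C1S are next to each other in the table and in the RefSeq annotation of rabbit (mOryCun1.1). The log2 ratio of C1S to C1R was -1.59 and -1.15 in HS, against -0.88 and -0.94 in drug-loaded MNs, which is 0.46 apart with a pooled SD of 0.22, so the ratio was higher in both drug-loaded MNs libraries. With 2 libraries a group, an exact permutation test of such a single value cannot give a two-sided p below 0.333, and none was run.

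C2, the substrate of C1S that becomes the protease of the classical C3 convertase, was even between replicates. It stood at 11.9 and 10.3 units in HS, against 20.03 and 21.7 units in drug-loaded MNs, with a log2 fold change of 0.86 (limma SE 0.26, p 0.011 unadjusted and 0.397 adjusted). CFP encodes properdin, a stabiliser of the alternative pathway convertase that leukocytes make. Its level was 4.40 and 2.24 units in HS, against 8.58 and 6.96 units in drug-loaded MNs. Its log2 fold change was 1.06 (limma SE 0.34, p 0.016 unadjusted and 0.418 adjusted), with a ratio of group means of 2.34, and it was 0.69 without HS replicate 2, where the unadjusted p was no longer under 0.05. The terminal components C6 and C9, which build the membrane attack complex, did not pass the filter: C9 lay between 0.167 and 0.664 units and C6 was above 0 in 1 library, at 0.0208 units.

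Among regulators, SERPING1 encodes the C1 inhibitor, which inactivates C1R and C1S. It stood at 109 and 131 units in HS, against 215 and 154 units in drug-loaded MNs. The groups did not overlap, although drug-loaded MNs replicate 2 lay nearer to the HS libraries than to its own replicate. This was a log2 fold change of 0.60 (limma SE 0.25, p 0.046 unadjusted and 0.561 adjusted). Set against its targets within each library, the log2 ratio of SERPING1 to C1S was 0.15 and 0.040 in HS, against -0.21 and -0.43 in drug-loaded MNs, which gives a difference of -0.41 with a pooled SD of 0.12. The ratio of SERPING1 to C1R showed no such separation: -1.44 and -1.11 in HS, against -1.09 and -1.36 in drug-loaded MNs. CD59, a membrane protein that blocks assembly of the attack complex, overlapped between groups, at 16.8 and 21.5 units in HS, against 31.1 and 20.6 units in drug-loaded MNs (log2 fold change 0.39, limma adjusted p 0.796).

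Other genes of these cascades, taken from a list of 44 that the definition by symbol did not include, were looked at beside the members. Of the 44, 25 were in the table and 17 passed the filter, with 12 higher and 5 lower in drug-loaded MNs. Over all tested genes 64.6% were higher. None passed an adjusted p of 0.05 in limma, and at an unadjusted p under 0.05, 6 of the 17 were higher and 0 lower, against 7.26% and 1.39% of all tested genes. The 6 were the C1q chain genes C1QA, C1QB and C1QC, the collectin gene COLEC12, FGL2 and C4BPA, a subunit of the C4b-binding protein. In HS, C1QA (1.31 and 0.868 units) and C1QB (0.065 and 1.66 units) lay near the filter. Of the 17, 10 were higher and 3 lower without overlap, against 26.6% and 11.2% of all tested genes. The 3 lower were VWF (149 and 128 units in HS, 83.1 and 114 units in drug-loaded MNs), PROCR and ANXA2. C1QC stood at 5.94 and 18.1 units in HS, against 41.2 and 30.4 units in drug-loaded MNs (log2 fold change 1.66, limma adjusted p 0.352). C4BPA stood at 1.73 and 2.64 units in HS, against 9.18 and 8.65 units in drug-loaded MNs (log2 fold change 1.65, limma adjusted p 0.264). The fibrinogen genes FGA and FGB were listed at 0 in all libraries.

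On the coagulation side, the initiator and its inhibitor differed in opposite directions. Of 9 members 5 passed the filter, 3 of them higher and 2 lower, and in none of the 5 did the groups overlap, although in PROS1, F5 and F2 they almost met. Of all tested genes, 26.6% were higher and 11.2% lower without overlap. TFPI encodes tissue factor pathway inhibitor, which blocks the complex of tissue factor with factor VIIa and is made largely by endothelium. It stood at 36.5 and 45.1 units in HS, against 71.8 and 108 units in drug-loaded MNs. Its log2 fold change was 1.10 (limma SE 0.27, p 0.0044 unadjusted and 0.334 adjusted), the highest of the tested members, and the ratio of group means was 2.20. F3 encodes tissue factor itself, which skin expresses in epidermis and around vessels. It stood at 311 and 409 units in HS, against 237 and 242 units in drug-loaded MNs, with a log2 fold change of -0.57 (limma SE 0.23, p 0.039 unadjusted and 0.532 adjusted). The drug-loaded MNs libraries lay close together, while the HS libraries lay apart. Within libraries, the log2 ratio of F3 to TFPI was 3.09 and 3.18 in HS, against 1.72 and 1.17 in drug-loaded MNs. The difference was -1.69 with a pooled SD of 0.28. Because F3 was lower and TFPI higher without overlap, the ratio had to be lower in both drug-loaded MNs libraries. It adds nothing to the values of the single genes. The ratios between members given here were picked after the values of their genes had been seen.

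The remaining 3 tested coagulation members differed less. PROS1, the gene of protein S, a cofactor of activated protein C and of TFPI, stood at 42.1 and 61.6 units in HS, against 63.2 and 84.7 units in drug-loaded MNs. HS replicate 2 and drug-loaded MNs replicate 1 nearly met, and the log2 fold change was 0.51 (limma adjusted p 0.709). F5, the gene of factor V, stood at 5.10 and 5.76 units in HS, against 5.77 and 10.3 units in drug-loaded MNs, so the groups almost met (log2 fold change 0.45, limma adjusted p 0.796). F2, the prothrombin gene, stood at 10.2 and 8.05 units in HS, against 5.32 and 7.84 units in drug-loaded MNs (log2 fold change -0.43, limma adjusted p 0.783).

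The other 4 coagulation members did not pass the filter. F12 lay between 0.479 and 0.864 units, and F11 and F13B were listed at 0 in all 4 libraries. A2M, the broad protease trap alpha-2-macroglobulin, was at 3.25 units in HS replicate 1 and at 0, 0.163 and 0.0923 units in HS replicate 2 and the drug-loaded MNs libraries. Its level thus came from 1 library. PLAU stood at 180.3 and 242 units in HS, against 185 and 149 units in drug-loaded MNs. The groups overlapped, and the log2 fold change of -0.33 (limma SE 0.25, adjusted p 0.796) was -0.12 without HS replicate 2.

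**Figure D2:**
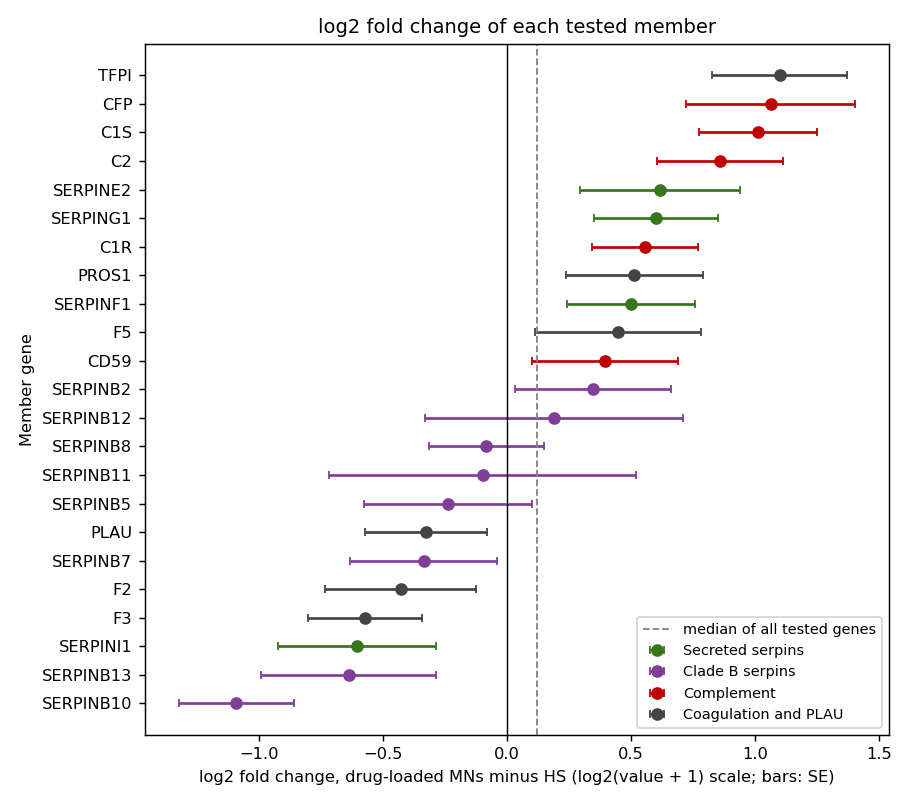
Log2 fold change of drug-loaded MNs minus HS for the 23 tested members, in order of size, with bars for the SE from limma and colours for the role. The dashed line marks the median of all tested genes at 0.12. TFPI (1.10), CFP (1.06), C1S (1.01) and C2 (0.86) lie at one end and SERPINB10 (-1.09) at the other, with most clade B serpins around or below 0.

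Of the 9 serpins outside clade B, 4 passed the filter, and in all 4 the groups did not overlap, with 3 higher and 1 lower in drug-loaded MNs. Over all tested genes the shares without overlap were 26.6% higher and 11.2% lower. Among the 4, only SERPING1 had an unadjusted p under 0.05 in limma. SERPING1 was described above with complement. SERPINF1 encodes PEDF, a serpin without protease inhibitor activity that restrains vessel growth and is made by dermal fibroblasts. It stood at 671 and 453 units in HS, against 793 and 768 units in drug-loaded MNs. The drug-loaded MNs libraries were close together, unlike the HS libraries. The log2 fold change was 0.50 (limma SE 0.26, p 0.090 unadjusted and 0.692 adjusted), and without HS replicate 2 it was 0.22.

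SERPINE2 encodes protease nexin-1, a cell-bound inhibitor of thrombin and of plasminogen activators. It stood at 36.8 and 21.0 units in HS, against 50.02 and 37.4 units in drug-loaded MNs, so HS replicate 1 and drug-loaded MNs replicate 2 almost coincided. The log2 fold change was 0.62 (limma SE 0.32, adjusted p 0.696), and 0.23 without HS replicate 2. SERPINI1 encodes neuroserpin, an inhibitor of tissue plasminogen activator known from neurons. It was the one serpin outside clade B that was lower, at 14.2 and 8.86 units in HS, against 7.98 and 6.19 units in drug-loaded MNs (log2 fold change -0.61, SE 0.32, limma adjusted p 0.700), and without HS replicate 1 the value was -0.30. Its neighbour by name SERPINI2, with SERPINC1 (antithrombin), SERPIND1 (heparin cofactor II) and SERPINF2 (alpha-2-antiplasmin), had 0.799 units at most in any library, and SERPINA7 was listed at 0 in all.

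All 8 clade B serpins passed the filter. They form 1 run in the table, in the order SERPINB5, SERPINB12, SERPINB13, SERPINB11, SERPINB7, SERPINB2, SERPINB10 and SERPINB8, broken only by ENSOCUG00000010529, a gene without a symbol between SERPINB13 and SERPINB11. RefSeq (mOryCun1.1) gives the same order in reverse. How the counting treated reads that match more than 1 gene of such a cluster was not stated. Of the 8, 2 were higher and 6 lower in drug-loaded MNs, while 64.6% of all tested genes were higher. The groups overlapped in 6. Without overlap, 0 were higher and 2 (25%) lower, against 26.6% and 11.2% of all tested genes. The median log2 fold change was -0.17.

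SERPINB10, also called bomapin, was the member with the smallest p. It stood at 327 and 247 units in HS, against 138 and 128 units in drug-loaded MNs. Both drug-loaded MNs libraries were far below the lower HS library, and they lay closer to each other than the HS libraries did. The log2 fold change was -1.09 (limma SE 0.23, p 0.0018 unadjusted and 0.303 adjusted), the ratio of group means was 0.463, and 0.460% of tested genes had a value as low or lower. In its direct neighbours the groups overlapped. SERPINB2, an inhibitor of urokinase found in keratinocytes and macrophages, stood at 239 and 192 units in HS, against 201 and 368 units in drug-loaded MNs (log2 fold change 0.35, limma adjusted p 0.838). SERPINB8, an inhibitor of furin, stood at 37.8 and 39.9 units in HS, against 39.2 and 34.1 units in drug-loaded MNs (log2 fold change -0.084, limma adjusted p 0.953). The log2 ratio of SERPINB10 to SERPINB8 was 3.12 and 2.63 in HS, against 1.81 and 1.91 in drug-loaded MNs, which gives a difference of -1.01 with a pooled SD of 0.25. The ratio of SERPINB10 to SERPINB2 was 0.45 and 0.37 in HS, against -0.55 and -1.53 in drug-loaded MNs.

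SERPINB5 encodes maspin, an epithelial serpin that inhibits no known protease. It stood at 751 and 1119 units in HS, against 582 and 1037 units in drug-loaded MNs. The libraries differed more within each group than between the groups, and the log2 fold change was -0.24 (limma SE 0.34, adjusted p 0.899). SERPINB13, an inhibitor of lysosomal cathepsins in the upper epidermis, stood at 60.9 and 60.4 units in HS, against 26.3 and 56.3 units in drug-loaded MNs. The groups did not overlap, but the difference came mainly from drug-loaded MNs replicate 1: the log2 fold change of -0.64 (limma SE 0.35, adjusted p 0.713) was -0.10 without that library and -1.17 without drug-loaded MNs replicate 2.

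SERPINB11 and SERPINB12 differed between replicates more than between groups. SERPINB11 stood at 1.77 and 5.91 units in HS, against 1.30 and 6.26 units in drug-loaded MNs. SERPINB12 stood at 2.87 and 9.16 units in HS, against 4.09 and 9.03 units in drug-loaded MNs. In both genes, as in SERPINB5, the libraries numbered 2 were above the libraries numbered 1 in each group, and the log2 fold changes were -0.099 and 0.19. SERPINB7, in which loss of function causes a palmoplantar keratosis in humans, went the other way, at 214 and 140.2 units in HS, against 167 and 113 units in drug-loaded MNs (log2 fold change -0.34, limma adjusted p 0.836).

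**Figure D3:**
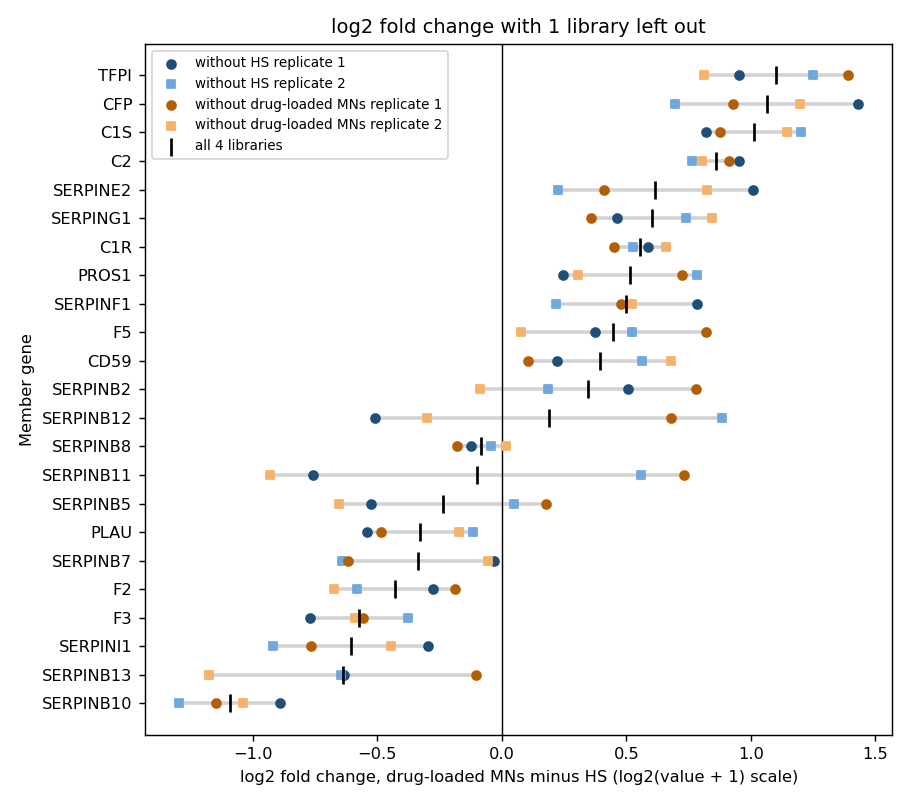
Log2 fold change of each tested member with all 4 libraries (black bar) and with each library left out in turn (points), where the grey line spans the 4 points. C1S, C2, C1R and TFPI stay above 0.45 throughout and SERPINB10 stays at -0.89 or lower, while SERPINB11, SERPINB12, SERPINB5, SERPINB2 and SERPINB8 cross 0.

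Leaving out 1 library separated members whose log2 fold change was steady from those in which it was not. The log2 fold change of C1S ranged from 0.82 to 1.20, that of C2 from 0.76 to 0.95, that of C1R from 0.45 to 0.66 and that of TFPI from 0.81 to 1.39. SERPINB10 ranged from -1.30 to -0.89. F3 was at -0.77 without HS replicate 1 and at -0.38 without HS replicate 2, and SERPING1 from 0.36 (without drug-loaded MNs replicate 1) to 0.84. Others moved more: CD59 ranged from 0.11 to 0.68, PROS1 from 0.24 to 0.78, F5 from 0.076 to 0.82, SERPINE2 from 0.23 to 1.01, F2 from -0.67 to -0.19 and SERPINB7 from -0.64 to -0.032, the first value without drug-loaded MNs replicate 1 for CD59, without HS replicate 1 for PROS1, without drug-loaded MNs replicate 2 for F5 and F2, and without HS replicate 2 for SERPINE2 and SERPINB7. In the alternatives that kept all libraries, C1S, C2, TFPI and SERPINB10 had an unadjusted limma p under 0.05 throughout. CFP was no longer under 0.05 under quantile normalization. With eBayes without trend, C1R, SERPING1 and F3 were no longer under 0.05. Under median ratio scaling the median of all tested genes was -0.01 in place of 0.12, and C1R and SERPING1 were no longer under 0.05. The share of higher genes among all those at an unadjusted p under 0.05 was then 64.1% in place of 83.9%, and under quantile normalization it was 59.0%.

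Markers of several cell types differed between the groups together with these members. All 5 fibroblast markers in the table were higher in drug-loaded MNs without overlap, as were 26.6% of all tested genes. The summed level of the 5 was 21347 to 22346 units in HS and 42736 to 45894 units in drug-loaded MNs. Most of that sum came from COL1A2 (13738 and 12946 units in HS, 22256 and 26648 units in drug-loaded MNs) and COL3A1 (5717 and 4657 units, 14786 and 13577 units). All 6 macrophage markers were higher as well, with summed levels of 77.7 to 95.3 units in HS and 194 to 195 units in drug-loaded MNs, and this list shares the C1q genes named above. All 3 lymphatic endothelial markers were higher (8.73 to 11.8 units in HS and 31.6 to 43.02 units in drug-loaded MNs). The 6 endothelial markers split into 3 higher and 3 lower, and their summed levels overlapped between groups, as did those of the 4 basal and the 5 suprabasal keratinocyte markers. These values come from cells freed from tissue. A larger number of cells of a type, better recovery of that type and more RNA per cell cannot be told apart in them. Of the neutrophil markers, MMP8 was listed at 0 in all libraries and LTF reached 0.0441 units at most. Summed mast cell markers (57.5 to 136 units in HS, 86.4 to 183 in drug-loaded MNs) overlapped between groups, and so did the 4 Schwann cell, the 4 mural and the 3 dissociation response markers. The T cell list had 1 gene in the table, CD2, at 0.559 and 1.24 units in HS, against 3.73 and 2.31 units in drug-loaded MNs. No erythroid marker passed the filter. The share of the total from the mitochondrially encoded protein genes in the table also moved with the groups, at 2.75% and 2.80% in HS, against 4.37% and 4.58% in drug-loaded MNs, and its part in the differences of the members was not tested.

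**Figure D4:**
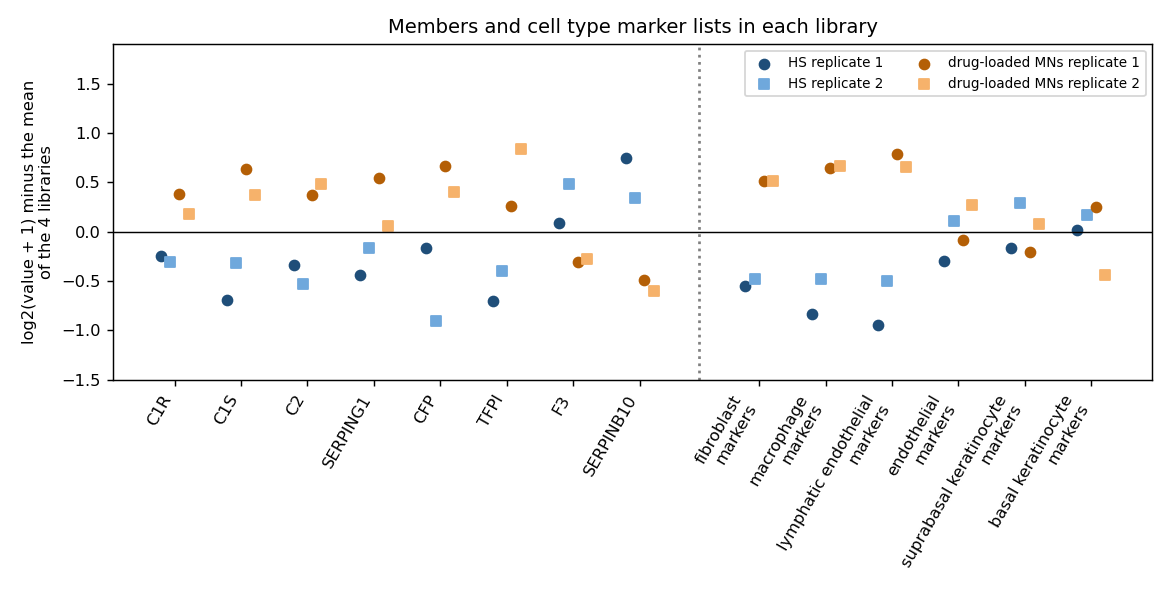
Each point is 1 library, as log2(value + 1) minus the mean of the 4 libraries, for 8 members at the left and for the mean over the markers of 6 cell type lists at the right. C1R, C1S, C2, SERPING1, CFP and TFPI have both drug-loaded MNs libraries above both HS libraries, as do fibroblast, macrophage and lymphatic endothelial markers; F3 and SERPINB10 have them below, while both keratinocyte lists overlap.

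Members were also set against the mean log2 level of a marker list in the same library, a comparison added after the values had been seen. Relative to fibroblast markers C1S did not separate the groups, with a difference of -0.018 (pooled SD 0.20). C1R was lower relative to them in drug-loaded MNs, with a difference of -0.47 (pooled SD 0.12). SERPINF1 was lower by this measure as well, at -0.53 (pooled SD 0.32), and so was SERPING1, at -0.43 (pooled SD 0.26), with no overlap between the groups in these 3. Against a single fibroblast gene, COL1A2, the groups still did not overlap for C1R (difference -0.31, pooled SD 0.23), but they overlapped for SERPINF1 (-0.37, pooled SD 0.28), SERPING1 (-0.26, pooled SD 0.41) and C1S (0.15, pooled SD 0.35). SERPINE2 relative to fibroblast markers overlapped between groups, at -0.41 (pooled SD 0.48), and so did C2, at -0.17 (pooled SD 0.15).

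Relative to macrophage markers C2 was lower without overlap, with a difference of -0.45 (pooled SD 0.27), while CFP overlapped at -0.25 (pooled SD 0.56). That list holds C1QA, C1QB and C1QC, which are complement genes too. In HS, C1QB stood at only 0.065 and 1.66 units and C1QA at 1.31 and 0.868 units. A list without the C1q genes was not tested. TFPI relative to endothelial markers was higher, at 1.35 and 1.24 in HS, against 2.09 and 2.33 in drug-loaded MNs, which gives a difference of 0.91 (pooled SD 0.13). For TFPI the groups overlapped relative to lymphatic endothelial markers, at -0.34 (pooled SD 0.36), and relative to fibroblast markers, at 0.071 (pooled SD 0.31). The position of TFPI therefore depended on the list it was set against.

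SERPINB10 relative to suprabasal keratinocyte markers was lower, with a difference of -0.97 (pooled SD 0.48), and relative to basal ones the difference was -0.90 (pooled SD 0.40), with no overlap between the groups in either. Against the suprabasal gene KRT10 alone the groups overlapped, at -6.60 and -7.52 in HS, against -7.48 and -8.13 in drug-loaded MNs. SERPINB10 was set against no other marker list, and which cells expressed it was not tested. F3 differed by -0.45 (pooled SD 0.13) relative to suprabasal markers, without overlap, and by -0.38 (pooled SD 0.38) relative to basal markers, with overlap. SERPINB5 and SERPINB13 overlapped relative to suprabasal markers, at -0.11 (pooled SD 0.28) and -0.51 (pooled SD 0.46). The part that cell makeup had in the differences of single members was not tested.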

How the data were processed

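The authors made the libraries with the 10x Genomics 3′ method. Per the labels, Cell Ranger 2.1.1 processed the reads, and the study then used Seurat. The submitters' notes name the mouse build mm10, whereas the gene identifiers are rabbit Ensembl identifiers; the rabbit annotation was not given in the sources used here. The deposited signal is named FPKM, but each column sums to 10000, and correction for gene length was not stated. Whether a correction for differences between samples, named in the methods, had been applied was not stated, nor was how doublets were treated. Of 884 to 1082 low values per library (up to 20 times the smallest), 18.5% to 21.7% lay within 0.1 of a whole multiple of the smallest, so whole reads could not be derived, and neither a count model nor a depth or counting interval was used.

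Values were rescaled to a total of 1000000. Genes averaging 1 unit or more entered the test. limma 3.58.1 (lmFit, and eBayes with a trend, in R 4.3.3) was run on log2(value + 1), and two-sided p-values were adjusted by Benjamini-Hochberg over all tested genes, with a threshold of 0.05. Fold changes on this scale understate those of low genes. The fit was also run on simulated data with independent normal errors and changes drawn evenly in both directions. That setting was simpler than these data, in which most differences went 1 way. Members and lists were chosen with earlier results of these data known. The plan had assumed FPKM.

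Genes were named by a rule: members past the threshold, the 6 smallest p-values in each direction, the 8 highest means, and 20 fixed names, of which 10 had no row and are not analysed here. This gave 17; the other tested members were added after their values were seen. Of the 34 symbols, 32 matched 1 RefSeq gene of mOryCun1.1, used for gene order only. 14 alternatives were run.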

Additional observations from a re-analysis of the deposited data

How the results depend on the processing

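No member had an adjusted p under 0.05 in 13 of the 14 alternatives. The exception was the fit with the replicate number as a block, which took 241 genes past the threshold in place of 4, C1S (limma adjusted p 0.012), TFPI (0.012) and SERPINB10 (0.0041) among them. Nothing but the number joins such libraries: the correlation across genes of their differences from the group means was 0.22, and 2 pairs cannot establish a pairing. Genes past the threshold numbered 0 under median ratio scaling, quantile normalization, a total without abundant genes, a pseudocount of 5 and no filter on low values, and 1 with eBayes without trend. Their number ranged from 0 to 75 when 1 library was dropped, which takes the single library left to vary as the other group does. It was 0 without HS replicate 1, 48 without drug-loaded MNs replicate 1, and 75 when drug-loaded MNs replicate 2 was dropped.

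Members at an unadjusted p under 0.05 (6 higher, 2 lower) numbered 4 higher and 1 lower with eBayes without trend, which lost C1R, SERPING1 and F3, and 8 higher and 3 lower with the replicate block. With 1 library left out they ranged from 3 to 7 higher and from 1 to 3 lower, with 3 higher without drug-loaded MNs replicate 1 or 2 and 1 lower without drug-loaded MNs replicate 1.

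The complement component median (0.93) was 0.79 under median ratio scaling, 0.74 under quantile normalization, 0.66 with a pseudocount of 5 and 0.71 without filter, and 0.73 to 0.97 with 1 library left out. The median of serpins outside clade B (0.55) was 0.048 without filter, where it was taken over 8 genes, and 0.22 to 0.67 with 1 library left out. The coagulation median (0.45) was -0.18 under quantile normalization, where A2M also entered, and ranged from -0.26 without drug-loaded MNs replicate 2, where A2M entered too, to 0.27. The clade B median (-0.17) ranged from -0.52 to 0.037 with 1 library left out, CD59 from 0.11 to 0.68 and PLAU from -0.54 to -0.12.

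Of the 17 members named by rule, 15 kept their direction in all alternatives. SERPINB5 ranged from -0.65 to 0.18 and SERPINB2 from -0.087 to 0.78 with 1 library left out. The cause of these changes was not tested beyond the entry of A2M and of low genes. No limit set by depth could be measured.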
